A study of Mus musculus with 8 samples.

Results

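The cytosolic ribosome is built from a 40S and a 60S subunit, and nearly every protein in it is encoded by a single working gene of the Rps or Rpl series, surrounded in the mouse genome by many near-identical processed copies. A few of these proteins have a second, intact gene. In the testis this matters because the X chromosome is silenced during meiosis, and the X-linked genes Rpl10, Rpl39 and Rps4x then cannot supply germ cells, which express the autosomal second genes Rpl10l and Rpl39l instead. The ribosomal protein genes were described here in whole-testis RNA-seq of wild-type mice and of mice with a disrupted Iqch gene. Members were the protein-coding genes named Rps or Rpl with a number and an optional a, x, y or l suffix, the stalk genes Rplp0, Rplp1 and Rplp2, and Rpsa, with the Rps6k kinases left out. The rule found 85 genes in the GENCODE annotation, of which 72 (28 of the 40S and 44 of the 60S subunit) were among the 17127 genes measured. The other 13 were not analysed here: Rpl3l, Rpl17, Rpl23a, Rpl24, Rpl31, Rpl36a, Rpl36al, Rpl38, Rps10, Rps13, Rps16, Rps28 and Rps29.

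The samples were whole testes of adult males, 1 library per mouse. The 4 wild-type libraries (wild type 1 to 4) were set against 3 libraries of homozygous Iqch mutants (mutants 1, 2 and 4), which carry small CRISPR-Cas9 deletions within an exon of Iqch, made in hybrid B6CBAF1 zygotes. The study shows the read coverage of its mutants under the name of the deletion line mu7, and the labels name no line. Mutant 3 was not analysed here, and the study left out 1 mutant library as an outlier. Values were depth-scaled read counts (CPM) as deposited, summing to 1000000 in each library, and they moved in steps that correspond to 32064384 to 37551057 assigned reads per library if the step is 1 read. Iqch itself lay between 193 and 217 CPM in the wild-type libraries and between 64.8 and 69.2 CPM in the mutants.

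The 3 X-linked members analysed had the largest fitted increases of the 72 genes, level with that of Rps3a1 on chromosome 3, while none of their autosomal second genes was called higher. Rpl10 and Rpl39 reached the minimum level for testing (2.2 CPM in 2 libraries of a group) only through the mutants, so they could be listed only if they were higher there. Rps4x and Rps3a1 reached it in both groups, and the X-linked member Rpl36a was not analysed here. To show how far each second gene differs from its X-linked partner, the stretch of 30 coding bases with the most differences in each pair is printed 5′ to 3′, with the differing bases in capitals. They were read from GRCm39 at chr12:66330985-66331014 (Rpl10l, minus strand), chrX:73315441-73315470 (Rpl10, plus), chr16:9992289-9992318 (Rpl39l, plus), chrX:36346365-36346394 (Rpl39, minus), chr6:148256693-148256722 (Rps4l, plus) and chrX:101230019-101230048 (Rps4x, minus), each within 1 coding exon.
Rpl10l: aaGgcGaaGgtGgatgaGttTccactCtgC
Rpl10: aaAgcAaaAgtTgatgaAttCccactTtgT
Rpl39l: cCaagCgGagacaTtggagACgaacCaaAT
Rpl39: cTaagAgAagacaCtggagGAgaacGaaGC
Rps4l: CTCGCtAgaCaGCggAaaaatCacCgaTGC
Rps4x: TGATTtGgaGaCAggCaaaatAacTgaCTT

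The windows hold 8, 9 and 15 differences. Over the whole coding sequence, Rpl10l and Rpl10 were 84.7% identical, Rpl39l and Rpl39 85.0%, and Rps4l and Rps4x 79.7%. The longest stretch of identical coding bases in a row was 23, 38 and 35 bases, each much shorter than a sequenced read. The coding sequence of each of the 3 second genes lies in 1 exon, and that of Rpl10, Rpl39 and Rps4x in 6, 3 and 7 exons. None of the 3 second genes had another near-identical locus, defined as at least 98% identity over at least 80% of the coding sequence, whereas Rpl10 had 7, Rpl39 had 3 and Rps4x had 2 such loci elsewhere in the genome.

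Rpl10 (ENSMUSG00000008682) encodes a 60S protein that joins the subunit late, close to the catalytic centre. It measured 1.38, 1.25, 1.31 and 1.28 CPM in wild type 1 to 4 and 2.84, 4.96 and 4.21 CPM in mutants 1, 2 and 4. Every mutant library stood above every wild-type library, and the mutants also varied more among themselves. The log2 fold change on the log2(CPM + 0.1) scale was 1.51 ± 0.19 (SE), with an adjusted p of 2.0e-05 in limma. Rpl10 was admitted through the mutants alone, so the filter favoured this direction and these values are a description. Its second gene Rpl10l (ENSMUSG00000060499, chromosome 12), which supplies the protein in meiotic and later germ cells, measured 169, 161, 160 and 158 CPM in wild type and 172, 168 and 177 CPM in the mutants. The 2 groups overlapped, and the log2 fold change of 0.09 ± 0.04 did not pass the test (limma, adjusted p = 0.0842).

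Rpl39 (ENSMUSG00000079641) encodes a very small protein that lines the exit tunnel of the 60S subunit. Its level was 1.02, 1.34, 1.00 and 1.36 CPM in wild type 1 to 4 and 3.56, 3.87 and 3.41 CPM in the 3 mutants, without overlap. The log2 fold change was 1.55 ± 0.17 (limma, adjusted p = 7.7e-06). Rpl39 too was admitted through the mutants alone, so its values are likewise a description. Rpl39l (ENSMUSG00000039209, chromosome 16), the male germ cell form of the same protein, went the other way, at 266, 265, 272 and 249 CPM in wild type and 214, 202 and 216 CPM in the mutants. It was one of only 2 members called lower, with a log2 fold change of -0.32 ± 0.04 (limma, adjusted p = 4.1e-05).

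Rps4x (ENSMUSG00000031320), a protein of the 40S subunit, rose from 3.74, 4.19, 3.56 and 4.07 CPM in wild type 1 to 4 to 12.2, 12.8 and 12.7 CPM in the mutants. This was the largest change among the 72 members, a log2 fold change of 1.67 ± 0.10 (limma, adjusted p = 3.3e-08). Rps4l (ENSMUSG00000063171, chromosome 6) measured 88.8, 78.2, 78.9 and 79.0 CPM in wild type and 86.3, 79.6 and 86.8 CPM in the mutants. These values overlapped, and the log2 fold change was 0.05 ± 0.06 (limma, adjusted p = 0.426).

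**Figure D1:**
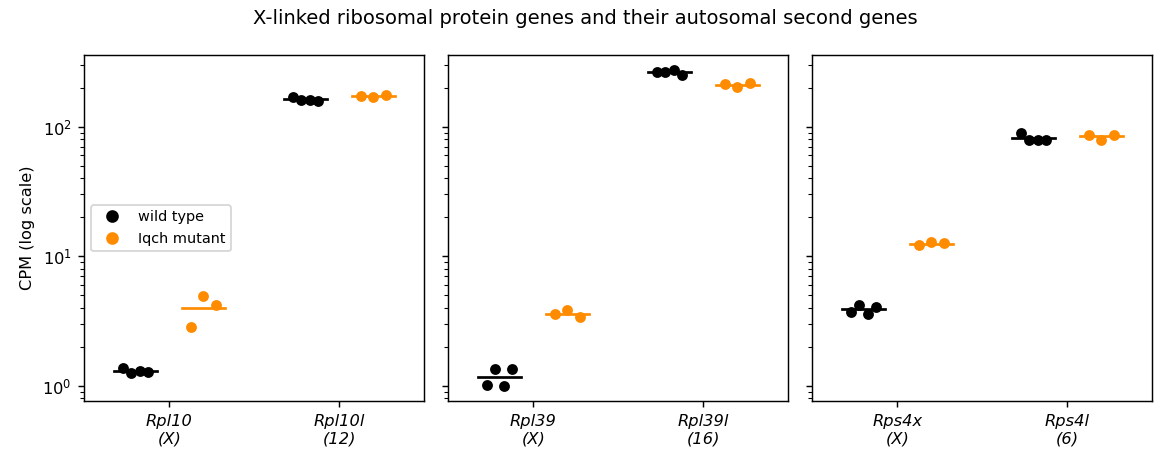
CPM (log axis) of the X-linked genes Rpl10, Rpl39 and Rps4x and of their second genes on chromosomes 12, 16 and 6, 1 point per library with a bar at the group mean (wild type, n = 4, and Iqch mutant, n = 3). The mutant points of the X-linked genes lie above all wild-type points, those of Rpl39l lie below, and those of Rpl10l and Rps4l overlap with wild type.

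The balance between a second gene and its partner was then compared within each library, where the scaling of the library has almost no effect. The CPM of Rpl10l was 122 to 129 times that of Rpl10 in the wild-type libraries and 33.9 to 60.5 times in the mutants. This was a difference of -1.43 in the mean log2 ratio. For Rpl39l and Rpl39 the ratio was 183 to 271 in wild type and 52.2 to 63.5 in the mutants, a difference of -1.87. For Rps4l and Rps4x it was 18.7 to 23.7 and 6.22 to 7.10, a difference of -1.61. In all 3 pairs the groups did not overlap and the second gene had the higher CPM in each library. Rpl10, Rpl39 and Rps4x have 7, 3 and 2 near-identical loci and the second genes have none. The size of each ratio therefore depends on how reads of such loci were counted, and it is not a measure of relative abundance.

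An exact two-sided permutation test over the 35 ways to divide 7 libraries into 3 and 4 gave p = 0.0286 for each of these 3 pairs, the smallest value the design allows (0.0429 after Benjamini-Hochberg adjustment over the 6 pairs tested). With the tail doubled instead, the same exact test gave p = 0.0571. For Rpl10 and Rpl39, which were admitted through the mutants alone, the filter favoured a fall of the ratio, so these 2 differences are a description. The pair of Rps4l and Rps4x was not subject to that selection. The ratio of Rpl7l1 to Rpl7 rose by 0.26 on the log2 scale with the same exact p of 0.0286. The ratios of Rpl22l1 to Rpl22 (-0.38, exact p = 0.0571) and of Rps27l to Rps27 (-0.24, exact p = 0.143) did not pass.

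Of the remaining 3 second genes, 2 were called higher. Rpl7l1, a nucleolar relative of Rpl7 with a role in ribosome assembly, measured 28.3 to 30.2 CPM in wild type and 42.1, 45.7 and 42.8 CPM in the mutants, a log2 fold change of 0.58 ± 0.06 (limma, adjusted p = 1.8e-06). Its partner Rpl7 measured 65.8 to 67.3 CPM in wild type and 80.5, 85.8 and 81.5 CPM in the mutants, a log2 fold change of 0.31 ± 0.04. Both genes were higher in all 3 mutants than in any wild-type library. Rpl22l1 measured 5.01 to 6.50 CPM in wild type and 5.72 to 6.33 CPM in the mutants, with a log2 fold change of 0.01 ± 0.12 (limma, adjusted p = 0.94), while Rpl22, the RNA-binding 60S protein it is paired with, measured 51.3 to 57.4 CPM in wild type and 69.1, 73.9 and 73.7 CPM in the mutants and was called higher (0.39 ± 0.05). Rps27l, a gene induced by p53, measured 40.3 to 46.9 CPM in wild type and 50.0, 52.1 and 56.1 CPM in the mutants, for a log2 fold change of 0.23 ± 0.06 (limma, adjusted p = 0.00772). That call was lost when libraries were rescaled by size factors (0.10, adjusted p = 0.199) and when any wild-type library, mutant 2 or mutant 4 was left out (adjusted p = 0.01 to 0.047). Its partner Rps27 was at 1.28 to 2.03 CPM in wild type and 2.38 to 2.56 CPM in the mutants and did not pass the test.

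Across all 72 members, 31 (43.1%) were called higher and 2 (2.78%) lower in the mutants by limma at an adjusted p under 0.01. Of all 17126 genes tested, 36.3% were called higher and 14.2% lower (50.4% in either direction). The share of members called higher was thus close to the share of all genes, and fewer members were called lower. The median log2 fold change was 0.27 over the members, from -0.34 to 1.67, and 0.12 over all tested genes. In 43 members (59.7%) all mutants lay above all wild-type libraries, against 42.8% of all genes, and in 2 members they lay below, against 19.5%. The 40S and 60S members were alike in these shares, with 12 of 28 and 19 of 44 called higher.

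**Figure D2:**
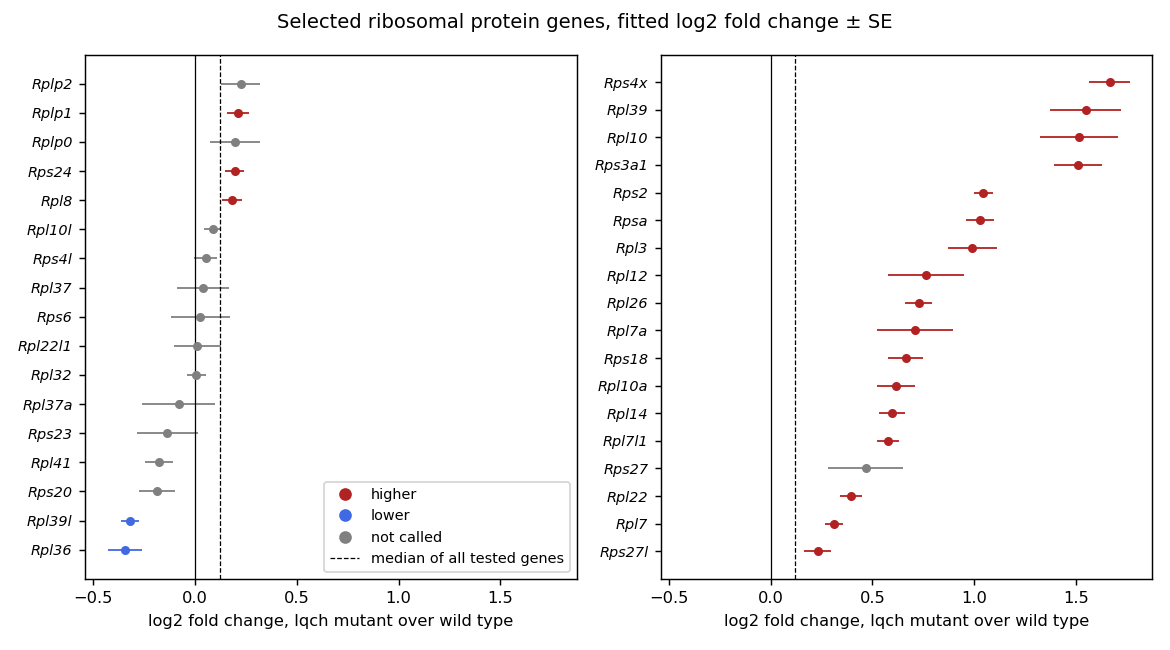
Fitted log2 fold change ± SE (mutant over wild type, n = 3 and 4) of 35 of the 72 ribosomal protein genes, namely the second genes and their partners, the stalk genes and Rpsa, the 8 other members with the highest and the 8 with the lowest fold change and the 5 most abundant per kb, sorted from the lowest (left, bottom) to the highest (right, top). Red points were called higher (20), blue points lower (2) and grey points were not called (13), and the dashed line is the median of all tested genes, 0.12.

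These counts depended on how the libraries were scaled. CPM sets each library against its own total. With median-ratio size factors the median of all tested genes moved from 0.12 to -0.01 and that of the members from 0.27 to 0.14, so that the members stayed above the median gene by a like amount. With that scaling 22 members (30.6%) were called higher and 4 lower, where 27.0% of all genes were called higher and 25.1% lower. Rpl41 and Rps20 joined Rpl36 and Rpl39l among the lower, and the 9 members no longer called higher included Rpl6, Rpl7a, Rpl8, Rpl29, Rpl34, Rplp1, Rps24 and Rps27l. The 12 members with the largest fold changes kept their call except Rpl7a.

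After the X-linked genes, the next largest changes were in autosomal members of low or middle abundance. Rps3a1 (chromosome 3), a 40S protein at the messenger RNA exit site, measured 2.66, 3.15, 2.86 and 2.82 CPM in wild type and 8.73, 8.89 and 7.49 CPM in the mutants, a log2 fold change of 1.51 ± 0.12 (limma, adjusted p = 3.1e-07). Rps2, a 40S protein at the messenger RNA entry channel, measured 37.2, 35.4, 35.6 and 35.8 CPM against 75.5, 74.4 and 73.1 CPM, a log2 fold change of 1.04 ± 0.05 (limma, adjusted p = 4.2e-09). Rpsa, the 40S protein also known as the laminin receptor, measured 18.7, 20.5, 19.4 and 18.002 CPM against 41.7, 38.3 and 37.6 CPM, a log2 fold change of 1.03 ± 0.07 (limma, adjusted p = 6.0e-08). In each of the 3 the groups were far apart compared with the spread within them. When the reads of pseudogenes named after a member were added to it, the log2 fold change of Rps2 was 0.18 (limma, adjusted p = 0.00249). That of Rpsa was 0.10 and no longer called (limma, adjusted p = 0.0396). No pseudogene was matched to Rps3a1 by name, so its value of 1.51 was not put to this check.

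Rpl3, which reaches toward the catalytic centre of the 60S subunit, measured 3.83 to 4.88 CPM in wild type and 8.85, 7.48 and 9.15 CPM in the mutants, a log2 fold change of 0.99 ± 0.12 (0.45 with the reads of its pseudogenes added). The other members of this upper group were Rpl12 at the base of the stalk (0.76 ± 0.19), Rpl26 near the tunnel exit (0.73 ± 0.07), Rpl7a (0.71 ± 0.19), Rps18 of the 40S head (0.66 ± 0.09), Rpl10a of the L1 stalk (0.62 ± 0.09) and Rpl14 (0.60 ± 0.06), all called higher by limma. Rpl12 lost its call without mutant 1 (adjusted p = 0.0147 in limma) or mutant 2 (adjusted p = 0.0138), and Rpl7a without wild type 1 or 3 or mutant 1 or 2 (adjusted p = 0.0104 to 0.0339), and Rpl7a stood at 0.45 with pseudogene reads added. Rpl10, Rpl39, Rpl7a, Rpl11 and Rps27 reached the CPM minimum of the test only through the mutants. A gene admitted in that way was bound to look higher. Without these 5 genes 28 of 67 members (41.8%) were called higher and 2 (2.99%) lower, with a median log2 fold change of 0.25. Of all genes 36.3% were called higher and 14.2% lower.

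At the other end stood Rpl36, a 60S protein, with 28.2, 26.7, 22.1 and 26.3 CPM in wild type and 21.7, 19.6 and 19.4 CPM in the mutants. Its log2 fold change of -0.34 ± 0.08 passed the test (limma, adjusted p = 0.00317), with a narrow gap between wild type 3 and mutant 1. The call was lost without wild type 1 or 2 or mutant 2 or 4 (adjusted p = 0.0108 to 0.0153), and the fold change was -0.17 with pseudogene reads added. Rps20 (-0.19 ± 0.09), Rpl41 (-0.18 ± 0.07), Rps23 (-0.13 ± 0.15) and Rpl37a (-0.08 ± 0.18) had negative fold changes that did not pass. Rpl32 (0.01 ± 0.05), Rps6 (0.03 ± 0.15), the substrate of the S6 kinases, and Rpl37 (0.04 ± 0.13) lay at 0 within their errors, and the signs of these 3 turned with size factors.

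The stalk of the 60S subunit, which recruits the translation factors, is built on Rplp0 and the acidic proteins Rplp1 and Rplp2. Rplp1 measured 119, 111, 129 and 115 CPM in wild type and 134, 136 and 142 CPM in the mutants, a log2 fold change of 0.21 ± 0.05 (limma, adjusted p = 0.00384). That call was lost with size factors (0.08, adjusted p = 0.23) and without wild type 2, mutant 2 or mutant 4 (adjusted p = 0.011 to 0.0224). Rplp2, at 14.1 to 19.0 CPM in wild type and 17.3 to 19.5 CPM in the mutants, overlapped and did not pass. Rplp0 was at 236, 228, 204 and 230 CPM in wild type and at 233, 344 and 212 CPM in the mutants. A single library, mutant 2, stood far above the other 6, and the log2 fold change of 0.20 ± 0.12 became -0.01 without it.

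Per kilobase of transcript, the most abundant members in wild type were Rpl41 (503 CPM per kb), Rpl8 (349), Rpl39l (320), Rpl32 (295) and Rps24 (244). Among these 5, Rpl39l was called lower, and Rpl8 (303 to 318 CPM in 3 wild-type libraries and 274 CPM in wild type 3, against 329 to 352 CPM in the mutants, log2 fold change 0.18 ± 0.05) and Rps24 (0.20 ± 0.05) were called higher. The calls of Rpl8 and Rps24 were lost with size factors (limma, adjusted p = 0.466 and 0.278). Without wild type 2 or 3 or any one mutant the call of Rpl8 was lost as well (adjusted p = 0.011 to 0.0341), as was that of Rps24 without mutant 4 (adjusted p = 0.0188). Rpl39 stood at 0.667 CPM per kb in wild type, so that the members spanned a wide range of levels per length.

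The measured level of a member was lower where its coding sequence had more near-identical loci. The 17 members without such a locus had a median of 112 CPM in wild type (4.67 to 300 CPM), the 21 members with 1 or 2 had 16.0 CPM, and the 34 members with 3 or more had 4.22 CPM. Spearman's rho between the number of loci and the wild-type CPM was -0.563 across the 72 genes (-0.479 with 95% identity), a description across genes that share the same libraries. Reads from a gene and from such a locus cannot be told apart where the sequence is the same, and how the authors' counting treated such reads is not given in the sources used here. The CPM of a member with many copies is therefore uncertain.

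The median log2 fold change rose with the number of loci. It was 0.19 for members without a near-identical locus (9 of 17 called higher, 1 lower) and 0.24 with 1 or 2 (8 of 21 higher). With 3 or more it was 0.41 (14 of 34 higher, 1 lower). Of all genes 36.3% were called higher and 14.2% lower. With size factors the 3 medians were 0.05, 0.10 and 0.28. Across the 72 genes Spearman's rho with the fold change was 0.283 for the number of loci. For the wild-type CPM it was -0.354, again a description. The 72 genes include the 5 admitted through the mutants alone, with 1.18 to 1.79 CPM in wild type and at least 2 loci each. The filter thus favoured both relations and the rise of the medians. The wild-type CPM is also part of the fold change itself. Among members without such a locus, Rps9 measured 67.2 to 77.1 CPM in wild type and 111, 87.8 and 101 CPM in the mutants (0.47 ± 0.07), and Rps3 and Rpl4 rose by 0.38 ± 0.05 and 0.28 ± 0.04, calls that also held with size factors. These 3 genes were picked as examples after their values were seen.

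**Figure D3:**
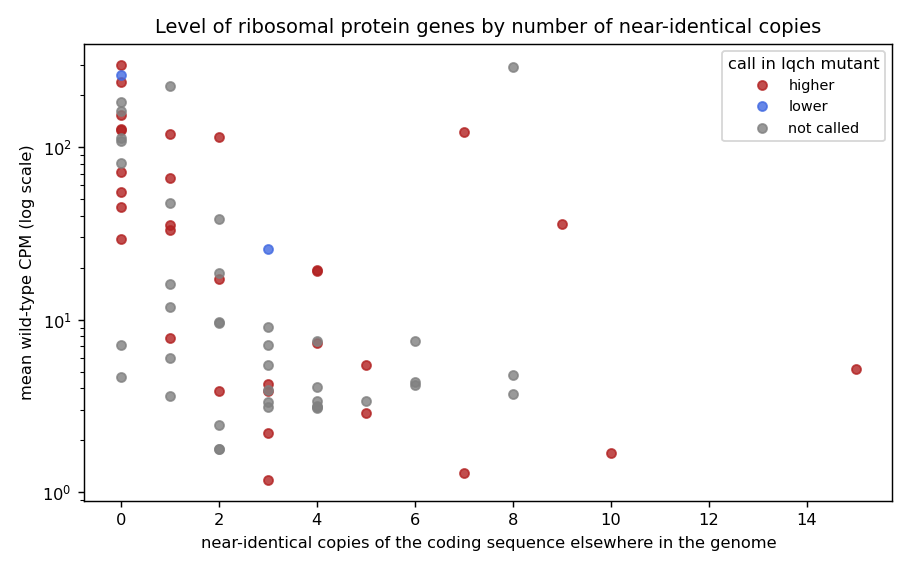
Mean wild-type CPM (log axis) of each of the 72 members against the number of near-identical loci of its coding sequence elsewhere in GRCm39, coloured by its call in the mutants. Most members with 3 or more loci lie under 10 CPM, with a few exceptions, and calls occur along the whole range.

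Rows outside the rule held related sequences. Among them, 63 pseudogenes named after a ribosomal protein gene were tested, with 29 called higher, 7 lower and a median log2 fold change of 0.23, beside 36.3% higher, 14.2% lower and a median of 0.12 over all genes. The pseudogene-derived protein-coding row Rpl10-ps3 was called higher, with group means of 2.37 and 6.73 CPM (log2 fold change 1.47). The intact retrogenes Rps27rt (271 CPM in wild type, 289 CPM in the mutants) and Rpl35rt (123 and 135 CPM) did not pass the test. Their CPM was far above that of Rps27 and Rpl35. Those 2 genes have 2 and 3 near-identical loci, so their own CPM is uncertain. Adding the reads of 51 named pseudogenes to their 33 parent genes gave 37 members called higher and 4 lower (share of all genes not given here). In that version the X-linked genes Rpl10 and Rpl39 had log2 fold changes of 1.51 and 1.32. No pseudogene was matched to Rps4x by name, so its value of 1.67 was not put to this check.

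Summed over the 72 members, the ribosomal protein genes took up 3635, 3471, 3409 and 3440 CPM in wild type 1 to 4 and 3999, 4023 and 3860 CPM in mutants 1, 2 and 4. The group means were 3489 ± 101 (SD, n = 4) and 3961 ± 88.1 (SD, n = 3), a fold of 1.14. In CPM as deposited the groups did not overlap. The 17 members without a near-identical locus summed to 2066 and 2299 CPM, a fold of 1.11. The difference of 472 CPM between the means was 123 CPM with size factors. With that scaling the groups overlapped in both sums, as wild type 1 lay above mutants 2 and 4.

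In bulk tissue a change in a transcript can come from fewer or more cells of a type or from less or more RNA per cell, and these cannot be told apart. Markers of several cell types also differed between the groups. Beside the counts below stand 36.3% of all genes called higher and 14.2% called lower. All 9 tested elongating spermatid markers, among them the protamines Prm1 and Prm2, were called lower, and their summed level fell from between 25776 and 27290 CPM to between 16551 and 18877 CPM. Of the somatic cells, 7 of 7 Sertoli markers (977 to 1057 CPM summed in wild type, 2047 to 2182 CPM in the mutants), 7 of 8 Leydig markers (1132 to 1345 and 4709 to 4853 CPM) and 7 of 7 macrophage markers (68.3 to 74.2 and 170 to 197 CPM) were called higher. Of the 8 tested spermatogonial markers, 5 were called higher (146 to 158 and 203 to 231 CPM). With size factors 4 of these were no longer called, and only Kit (group means 21.7 and 62.2 CPM) kept its call. The spermatocyte markers had 1 of 10 higher and 1 lower (1213 to 1231 and 1139 to 1217 CPM), and the round spermatid markers 3 of 7 lower (932 to 1002 and 801 to 887 CPM). With size factors 4 spermatocyte markers and all 7 round spermatid markers were called lower, and no marker of these stages was called higher. Of all genes 27.0% were called higher and 25.1% lower with that scaling. Of the vascular and muscle markers, 2 of 5 endothelial (30.6 to 34.5 and 44.0 to 46.4 CPM) and 1 of 4 myoid markers (68.4 to 92.2 and 87.4 to 109 CPM) were called higher. The part of these shifts in the values of the ribosomal protein genes was not tested.

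The X-linked members were also set beside the rest of the X chromosome. Of 625 X-linked genes tested, 51.2% were called higher and 7.52% lower, with a median log2 fold change of 0.35, while of 16379 autosomal genes 35.8% were higher and 14.4% lower, with a median of 0.12. Rpl10, Rpl39 and Rps4x lay well above the X-linked median. Of the other X-linked genes in the translation lists, the initiation factor gene Eif2s3x, an X-linked gene with a homologue on the Y chromosome, was called higher at 1.21 ± 0.17 (group means 1.56 and 3.74 CPM), but it too reached the minimum only through the mutants. Its Y-linked homologue Eif2s3y was called higher at 0.33 ± 0.07 (41.9 and 52.6 CPM), and Eif1ax at 0.16 ± 0.04 (82.9 and 92.5 CPM). The assembly factor genes Dkc1 and Utp14a on the X chromosome rose by 0.65 ± 0.12 and 0.36 ± 0.09. The calls of Eif1ax, Eif2s3y and Utp14a were lost with size factors.

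Ribosomal protein mRNAs belong to the TOP class, whose 5′ ends carry a run of pyrimidines and whose translation is set by mTOR through Larp1. In the RefSeq start windows (GRCm38.p6), 54 of the 72 members were found, and 18 (33.3%) held a run of at least 8 C or T bases that touched the annotated start or the base beside it, against 1904 of 27025 genes (7.05%). The mRNA itself was measured here, not its translation. Other transcripts of the TOP class had a median log2 fold change of 0.11, with 3 of 12 called higher and 1 lower. The noncoding snoRNA host Gas5 had group means of 11.7 CPM (wild type, SD 4.22) and 27.0 CPM (mutant, SD 1.44) and was called higher (1.27 ± 0.21), and the host Snhg8 was called lower (-0.26 ± 0.07). The genes that regulate TOP translation had 9 of 15 called higher and 1 lower (36.3% and 14.2% of all genes) with a median of 0.36. With size factors 8 were higher and 3 lower (27.0% and 25.1% of all genes). The list ranged from the S6 kinase gene Rps6kb2 (0.86 ± 0.12) to Larp1b (-0.21 ± 0.05).

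The rest of the translation machinery did not move as one group. The 15 tested genes of RNA polymerase I and rDNA transcription, which make the ribosomal RNA, had 9 called higher and none lower, with a median of 0.34, where 36.3% of all genes were called higher and 14.2% lower. With size factors 5 were higher and 1 lower, where 27.0% of all genes were called higher and 25.1% lower. The largest change among them was in Ubtf, the factor that binds rDNA, at 0.84 ± 0.05 (45.5 to 81.3 CPM), and the smallest called was in Taf1a (0.27 ± 0.08). Of 40 ribosome assembly factors, 19 were called higher and 2 lower, with a median of 0.17, and with size factors the counts were 6 higher and 9 lower. They ranged from the pseudouridine synthase gene Dkc1 (0.65 ± 0.12) to Efl1, which releases Eif6 from the 60S subunit, at -0.56 ± 0.05 (60.5 to 41.0 CPM).

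The 32 initiation factor genes had a median of 0.03, with 7 called higher and none lower, beside 36.3% and 14.2% of all genes. With size factors 2 were higher and 10 lower, where 27.0% of all genes were called higher and 25.1% lower. Besides Eif2s3x, the helicase gene Eif4a1 stood out at 1.04 ± 0.07 (17.0 to 35.3 CPM). Of the 6 genes in the elongation factor list, Eef1b2 (0.43 ± 0.04) and the kinase gene Eef2k (0.25 ± 0.07) were called higher. Eef1d was called lower (-0.34 ± 0.04), and the median was -0.004. With size factors 1 gene of this list was higher and 3 were lower, and Eef2k lost its call. Among the ribosomal proteins with other names, Rack1 of the 40S subunit rose from 110 to 164 CPM (0.57 ± 0.05), and Fau (-0.19 ± 0.16) did not pass.

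**Figure D4:**
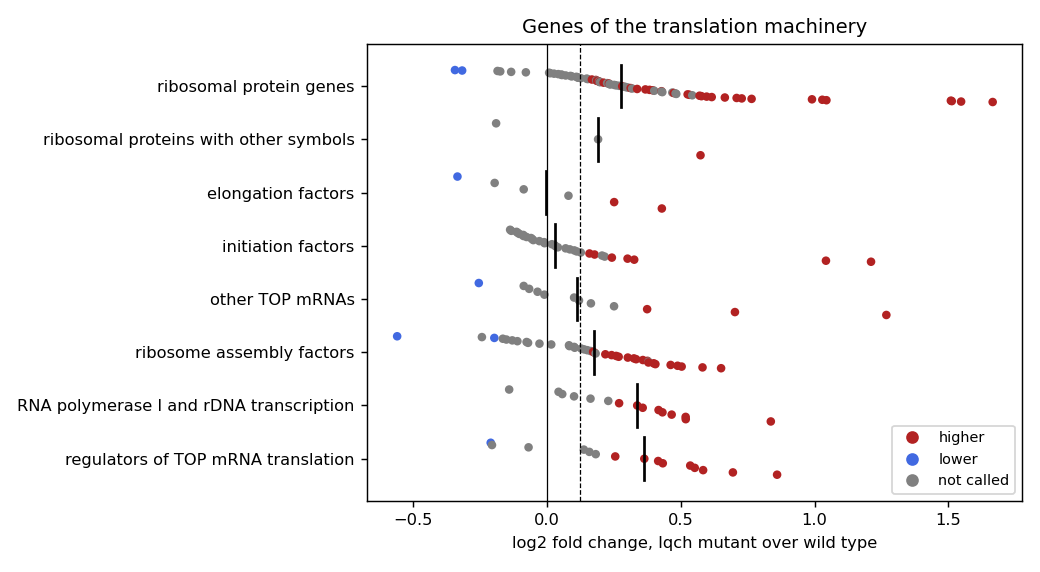
Log2 fold changes (mutant over wild type) of the 72 ribosomal protein genes and of the genes of 7 translation lists, 1 point per gene, coloured by call, with a black bar at the median of each list and a dashed line at the median of all tested genes. The median is 0.27 for the ribosomal protein genes and lies between -0.004 (elongation factors) and 0.36 (regulators of TOP mRNA translation) for the lists.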

How the data were processed

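Whole-testis RNA was sequenced from 4 wild-type and 3 Iqch mutant mice analysed here (1 TruSeq library per mouse). Per the study's methods and the labels, the authors trimmed the paired-end reads with Trimmomatic and used Subread (reference GRCm39) and featureCounts to align them and to count them per gene (strand setting, treatment of multi-mapped reads and annotation release not given in the sources used here), filtered out genes with low counts and deposited CPM values, which sum to 1000000 in each library over 17127 genes. No raw counts were used.

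Gene symbols, types and positions came from GENCODE M39, which held 17045 of the gene IDs (99.5%). Fold changes were fitted on log2(CPM + 0.1) with limma 3.58.1 (lmFit, eBayes with trend, genotype only) for the 17126 genes that reached 2.2 CPM in 2 libraries of either genotype, adjusted by Benjamini-Hochberg over all of them and called at 0.01. A fold change on this scale understates the change of low genes. The script was tested on simulated data. The p-values measure the spread between mice. Groups came from the sample labels. Copy-to-partner ratios were tested by exact permutation. Near-identical loci were found with blastn 2.17.0 against GRCm39, and coding sequences were aligned globally with Biopython 1.88, using the CCDS transcript with the lowest ID of each gene.

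The members and the gene lists were chosen with earlier results of these data known. Named were the second genes and their partners, the stalk genes and Rpsa, the 8 other members with the highest and the 8 with the lowest fold change, the 5 with the highest CPM per kb and, per list, the extreme called genes. A few genes are not reported by name here. Start windows of 7 genes that the plan named are not printed because none held a run of 8 pyrimidines. Alternatives tried were other pseudocounts and minimums, size factors, a replicate block, sample weights, adding pseudogene reads and leaving out each library. Same-numbered libraries of the 2 groups did not deviate together (correlations 0.026, 0.0094 and -0.098), so the numbers were not taken as pairs.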

Additional observations from a re-analysis of the deposited data

Results flagged for a closer look

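In the wild type, 4 of 72 members had 1 library that stood apart from the other 3 by Dixon's criterion, where chance alone gives about 5% of genes. These were Rpl26 in wild type 1 (21.1 CPM, against 18.6 to 18.9 in the others), Rpl6 in wild type 2 (15.1 CPM, the lowest), Rps27l in wild type 4 (40.3 CPM, the lowest) and Rps4l in wild type 1 (88.8 CPM, the highest). The log2 ratio of Rpl10l to Rpl10 in wild type 2, 6.90, stood above the other wild-type values by the same criterion. The mutants, with 3 libraries, were not examined in this way.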

How the results depend on the processing

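The numbers of members called higher (31) and lower (2) did not change with a pseudocount of 1 or 0.01. They were also the same without a minimum, but 17126 of 17127 genes passed it, so leaving it out could change little. With a minimum of 5 CPM 27 of 53 members were called higher and 2 lower. A pseudocount of 1 moved the median log2 fold change of the members to 0.24. Size factors gave 4 members called lower, a median of 0.14, a summed difference of 123 CPM, and negative fold changes for Rpl10l (-0.048), Rpl22l1 (-0.12), Rpl32 (-0.13), Rpl37 (-0.090), Rps4l (-0.081) and Rps6 (-0.11), none of them called, with 9 calls lost and 2 gained among the members. Adding pseudogene reads gave 4 members called lower, a median of 0.23 and a summed difference of 690 CPM, with Rpl34 and Rpsa no longer called and 10 members newly called. With the replicate block 24 members were called higher and 3 lower (32.6% and 12.5% of all genes), 7 calls were lost and 1 was gained, and no fold change of a member turned. The block would pair libraries that share only a number. Sample weights gave 35 higher and 2 lower. The shares of all genes called with other pseudocounts or minimums, added pseudogene reads or sample weights are not given here. These counts of members are therefore not set against them.

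Leaving out 1 library at a time gave 23 to 31 members called higher and 1 to 3 lower (shares of all genes in these fits not given here). The log2 ratio differences were -1.65 to -1.24 (Rpl10l to Rpl10) and -1.96 to -1.78 (Rpl39l to Rpl39). Their exact permutation p-values were 0.0667 or 0.1, the smallest that 15 or 20 divisions of the remaining libraries allow. Rpl10 and Rpl39 were admitted through the mutants alone, which favoured a fall of these ratios, so the differences remain a description. Over the 7 fits that each left out 1 library, the fold change of 8 members, none of them called with all libraries, crossed 0. These were Rpl35 (without mutant 1), Rps7 (without wild type 4), and, with the lowest and highest values, Rpl32 from -0.018 (without wild type 2) to 0.042, Rps6 from -0.090 (without mutant 4) to 0.092, Rpl22l1 from -0.070 (without wild type 2) to 0.053, Rpl37 from -0.030 (without mutant 1) to 0.11, Rpl37a from -0.24 to 0.10 (without mutant 1) and Rplp0 from -0.012 (without mutant 2) to 0.34. The cause of these changes was not tested. Tests on counts (edgeR and DESeq2) were not run. The CPM of each library moved in even steps, but too few low values were present to meet the rule set beforehand for recovering reads. The depth limits genes near 1 CPM, such as Rpl10 and Rpl39 in wild type.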
